A study of Mus musculus with 11 samples.

Results

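The small GTPases encoded by Rab27a and Rab27b and 8 of their known effectors (Sytl1, Sytl2, Sytl3, Sytl4, Sytl5, Myrip, Mlph and Unc13d) were examined in mouse testes at P21. The 10 genes were matched by annotation symbol among the 23074 genes of the count table, and all 10 were found. Rab27a and Rab27b were selected on their lower level in Rfx2-/- than in WT testes in these same mice, so their genotype difference is given below as a description without a test. The effectors were chosen as known binding partners of Rab27 and not for their values.

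RNA-Seq counts were available for decapsulated testes of 5 WT mice (replicates 1 to 5) and 6 Rfx2-/- mice (replicates 6 to 11), all 21 days old and of a mixed C57BL/6, 129/Sv and FVB/N background. In the Rfx2-/- mice an exon that codes for much of the DNA-binding domain of the transcription factor RFX2 had been removed from the germline by crossing floxed mice to a strain that expresses Cre ubiquitously from an ACTB promoter, and the mixed-background line carried a neomycin cassette. Each library came from whole testis, so fewer cells of a type and less RNA per cell cannot be told apart. The paper used littermates of the same age where it could. The labels do not say whether mice shared litters, so no litter term was fitted. The p-values set the genotype difference against the spread between these mice and treat each mouse as independent.

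Rab27 proteins sit on the membranes of secretory granules and lysosome-related organelles when bound to GTP. There they recruit effectors that move the organelle along the cytoskeleton, dock it at the plasma membrane and prime it for fusion. The effectors form the synaptotagmin-like protein family (Slp, encoded by the Sytl genes), the Slac2 family, which links Rab27 to myosin motors (Mlph and Myrip), and Munc13-4 (Unc13d). Loss of Rab27a in mice and humans gives pale coats or hair and faulty killing by cytotoxic lymphocytes. The acrosome of spermatids is a large secretory organelle built from Golgi-derived vesicles, and its release at fertilization uses Rab27, Rab3a and the SNARE machinery.

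Total counts lay between 22232097 and 29769483 per mouse, and levels are given as CPM, which are counts per 1000000 counts of the library after scaling by TMM. A floor of 3 counts corresponded to 0.0851 to 0.139 CPM. Counts over the whole Rfx2 gene were 191 to 472 CPM in WT and 282 to 324 CPM in Rfx2-/- mice, and a count over all exons does not show the removed exon. The mice differed in germ cell marker levels. Summed levels of 7 pachytene spermatocyte markers were 8028, 7135, 3756, 7132 and 3641 CPM in WT replicates 1 to 5, against 7298 to 9351 CPM in Rfx2-/- mice, so WT replicates 3 and 5 stood apart. Over the list, mean log2 CPM was 8.79 ± 0.66 (SD, n = 5) in WT and 9.48 ± 0.14 (SD, n = 6) in Rfx2-/- mice, and this difference of 0.69 did not pass 0.05, the threshold for marker lists, after adjustment (two-sided exact permutation p = 0.00866, adjusted over 11 marker lists p = 0.0714). Without WT replicates 3 and 5 it was 0.22. The 9 Sertoli cell markers differed by -0.29 on the same scale (two-sided exact permutation p = 0.0130, adjusted p = 0.0714). Defining markers of the cells in which Rab27a is best known were at or near 0. Of 5 melanocyte markers, Tyr and Tyrp1 were at 0 in all 11 mice and Mlana stayed under 1 CPM, while Pmel was at 15.2 to 22.3 CPM. Of 8 lymphocyte markers, 6 stayed under 1 CPM in every mouse, Prf1 and Gzma among them, and Cd3e reached the highest level of the list at 6.19 CPM.

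Rab27a (ENSMUSG00000032202, chromosome 9 from 73044854 to 73097629 of GRCm38, plus strand) encodes the Rab27 isoform that carries melanosomes and lytic granules. The pseudogene Gm27186 overlaps 4.70% of its exons on the same strand and is not a row of the count table. Rab27a was at 36.2, 30.0, 18.6, 28.1 and 19.1 CPM in WT replicates 1 to 5. In Rfx2-/- mice the lowest, median and highest values were 8.31, 9.45 and 9.99 CPM. Every Rfx2-/- mouse lay below every WT mouse, and the WT mice spread over a 1.95-fold range against 1.20-fold among Rfx2-/- mice. Group means were 26.4 ± 7.50 CPM (SD, n = 5) and 9.36 ± 0.56 CPM (SD, n = 6), and the fitted difference was -1.50 on the log2 scale with a standard error of 0.17, a 2.82-fold higher level in WT. The gene was chosen for this difference, and among all genes 5.2% of the 15745 tested had every Rfx2-/- mouse below every WT mouse.

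The spread of Rab27a within WT mice was a standard deviation of 28.4% of the mean, where counting error alone gives 3.54%. Within Rfx2-/- mice it was 5.95%, with a counting error of 6.78%. WT replicates 3 and 5, the mice lowest in pachytene markers, were also the lowest WT mice in Rab27a. Per 1000 CPM of summed pachytene markers, Rab27a was at 4.50, 4.20, 4.94, 3.94 and 5.25 CPM in WT replicates 1 to 5 and at 1.02 to 1.29 CPM in Rfx2-/- mice. On that scale the WT mice lay close together, with a standard deviation of 11.7% of the mean, the smallest over the 11 marker lists in WT. In Rfx2-/- mice it was 8.93%, above the 5.95% without scaling. The endothelium (8.05%) and Sertoli (8.63%) lists gave a smaller spread there. The pachytene list was singled out after its values were seen. Without WT replicates 3 and 5 the fitted difference was -1.74, and leaving out 1 mouse at a time gave -1.59 to -1.35. The part of pachytene marker level in the Rab27a difference was not tested.

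**Figure D1:**
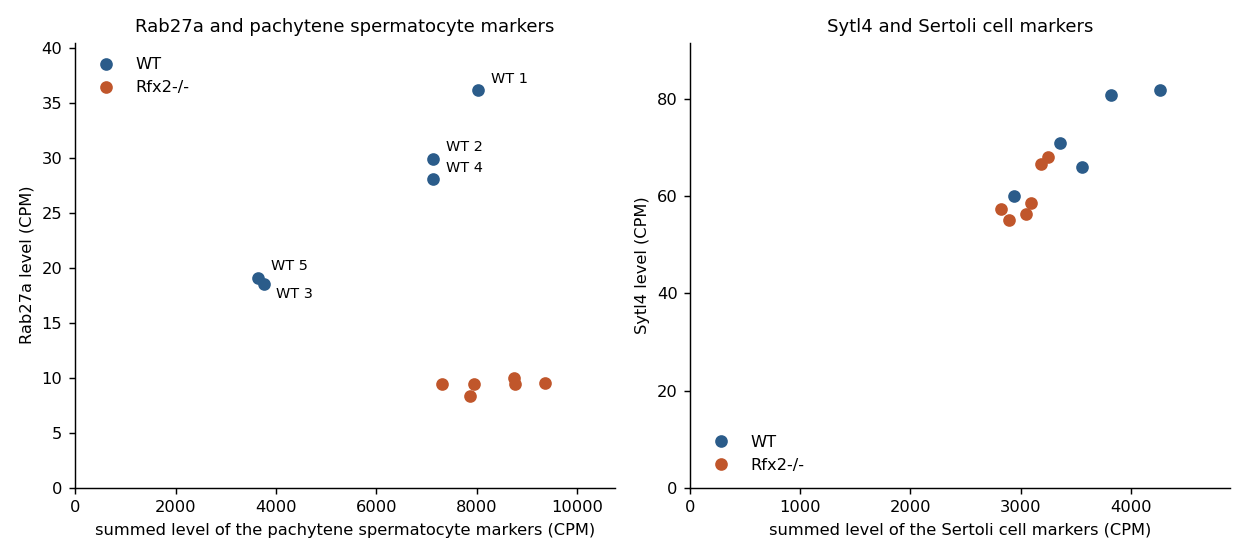
Levels of Rab27a against summed pachytene spermatocyte markers (left) and of Sytl4 against summed Sertoli cell markers (right), in CPM, with 1 point per mouse. WT replicates 3 and 5 were lowest in pachytene markers and in Rab27a among WT mice. The Rfx2-/- mice stayed between 8.31 and 9.99 CPM of Rab27a at pachytene levels of 7298 to 9351 CPM. On the right, WT replicate 1 lay among the Rfx2-/- mice. The other WT mice had 3357 to 4267 CPM of Sertoli markers, above the Rfx2-/- maximum of 3246 CPM.

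Bases upstream of Rab27a are shown because RFX factors act through X-box motifs near transcription starts. RefSeq annotates 2 starts on the plus strand of GRCm38.p6, and the 250 bases before each are given 5′ to 3′ with CpG dinucleotides in capitals. The first window (chr9:73044560-73044809) held 14 CpG dinucleotides at 62.0% GC, and the second (chr9:73063898-73064147) held 5 at 51.6% GC.
Rab27a, first start: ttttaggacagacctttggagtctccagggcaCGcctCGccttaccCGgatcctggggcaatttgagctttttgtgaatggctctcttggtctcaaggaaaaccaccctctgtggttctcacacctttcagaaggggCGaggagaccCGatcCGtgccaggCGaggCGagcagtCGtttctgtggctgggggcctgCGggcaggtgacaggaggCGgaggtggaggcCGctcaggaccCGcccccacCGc
Rab27a, second start: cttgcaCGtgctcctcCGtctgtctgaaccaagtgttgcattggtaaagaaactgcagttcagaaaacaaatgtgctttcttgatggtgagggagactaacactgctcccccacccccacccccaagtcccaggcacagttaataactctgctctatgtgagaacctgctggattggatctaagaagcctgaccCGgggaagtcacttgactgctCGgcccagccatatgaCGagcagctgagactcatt
Neither window, nor the 50 bases after each start, held the palindromic core of the X-box (GTNNCC, any 2 bases, then GGNNAC) or the half-site GTTGCC on either strand. Promoter windows of 300 bases were searched for 7 of the 10 members (8 windows in all, of Rab27a, Sytl1, Sytl3, Sytl4, Sytl5, Myrip and Mlph), and 0 of the 8 held either motif. The other members were not searched, so nothing is said of their promoters. Among 32851 RefSeq promoter windows of mouse genes, 1.88% held the core and 12.5% the half-site. These letters were looked for in these windows alone.

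Rab27b (ENSMUSG00000024511, chromosome 18) encodes the isoform used in platelets and exocrine glands. Its level was very low, at 0.739, 0.605, 0.795, 0.525 and 0.817 CPM in WT replicates 1 to 5, which rests on 15 to 28 reads per mouse. Rfx2-/- mice had 0.218 CPM at the lowest, 0.305 at the median and 0.508 at the highest, from 5 to 11 reads. The genotypes did not overlap, although the lowest WT mouse and the highest Rfx2-/- mouse were next to each other. Means were 0.696 ± 0.126 CPM (SD, n = 5) and 0.340 ± 0.113 CPM (SD, n = 6), and the fitted difference was -1.03 with a standard error of 0.24. The spread of 18.1% of the mean in WT and 33.4% in Rfx2-/- mice was below the counting error of 21.5% and 35.7%, so mice of the same genotype did not differ in Rab27b by more than counting error. WT replicates 3 and 5 did not stand low in Rab27b as they did in Rab27a, and without them the fitted difference was -0.86.

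Levels of different genes are compared per kilobase of merged coding-transcript exons. In WT the order was Sytl4 (14.3 ± 1.86 CPM per kb, SD, n = 5), Rab27a (8.33 ± 2.37), Unc13d (2.69 ± 0.18) and Sytl2 (1.60 ± 0.12), whose ranges over the 5 mice did not overlap. Sytl1, Myrip, Mlph, Sytl5 and Sytl3 followed with means of 0.353 down to 0.152 CPM per kb, each overlapping its neighbour, and Rab27b was last at 0.0925 ± 0.017. Rab27a made up nearly all Rab27 message: the share of Rab27b in the per-length sum of the pair was 1.20% ± 0.52 (SD, n = 5) in WT and 1.50% ± 0.47 (SD, n = 6) in Rfx2-/- mice. In Rfx2-/- mice Sytl4 was again first, at 11.96 ± 1.10 CPM per kb (SD, n = 6). Rab27a was at 2.95 ± 0.18 there and overlapped Unc13d at 2.64 ± 0.31, from which it was apart in WT.

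**Figure D2:**
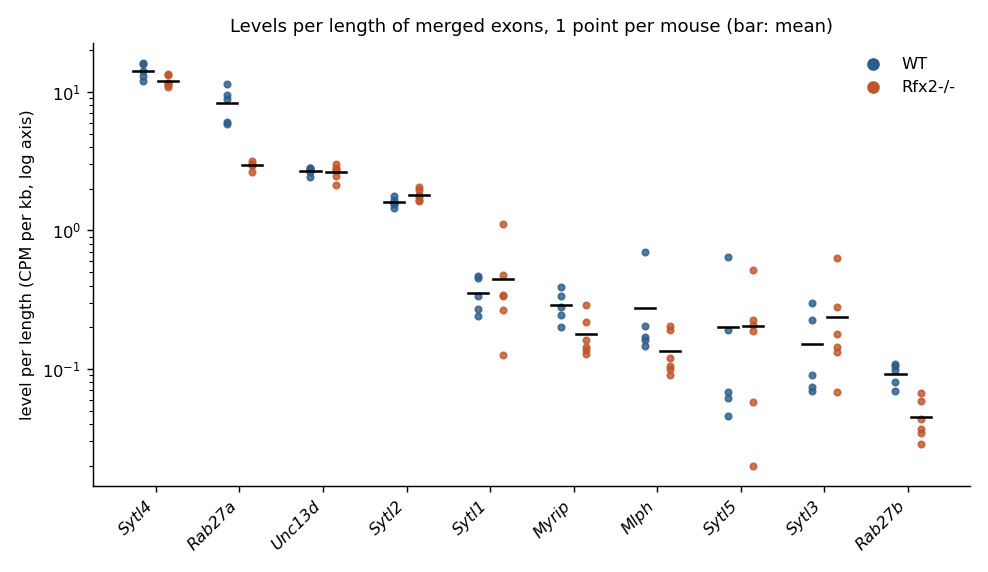
Level of each member per kilobase of exons (log axis) in WT and Rfx2-/- testes, with 1 point per mouse and a bar at the mean, ordered by the WT mean. Sytl4, Rab27a, Unc13d and Sytl2 stood above the other 6 genes. Rab27a, picked for its lower level in Rfx2-/- mice, was the member of this upper group whose genotypes were apart.

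The effectors were tested gene by gene and not as a group. Of the 8, all 8 passed the filter on low counts, 0 were lower and 0 were higher in Rfx2-/- testes at an adjusted p of at most 0.01 in edgeR's quasi-likelihood test, and DESeq2 and limma voom also called 0. Among the 15745 tested genes 1.94% were lower and 0.73% higher, 2.67% in all, so a count of 0 of 8 was close to the background. At an adjusted p of 0.05 or less, 0 effectors passed, where 8.78% of all genes were lower and 6.15% higher. At an unadjusted p under 0.05 in edgeR, 3 effectors were lower (Sytl4, Myrip and Mlph) and 0 higher, against 23.7% lower and 18.1% higher among all tested genes. The median log2 fold change of the effectors was 0.01, with 4 below and 4 above 0, and that of all tested genes was -0.05.

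**Figure D3:**
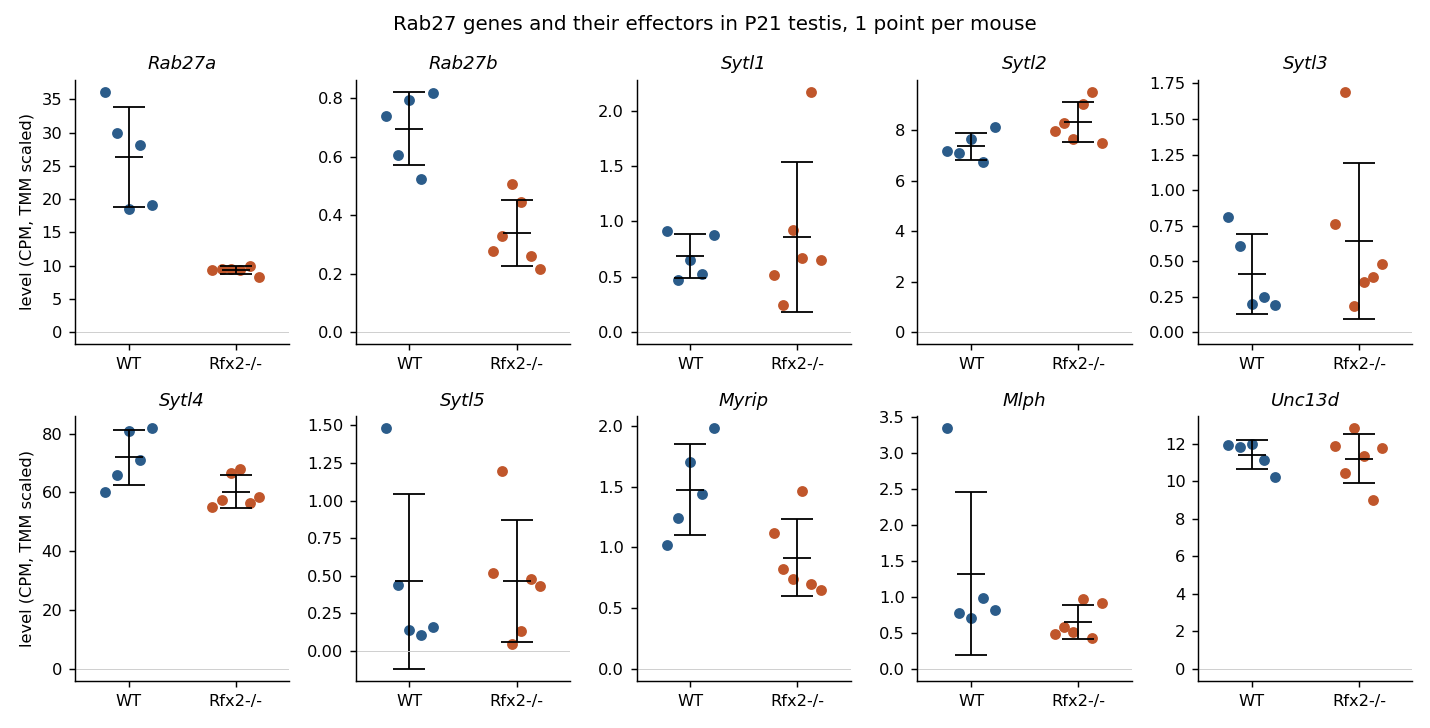
Level of each of the 10 members in CPM, with 1 point per mouse and black bars for the mean and SD of 5 WT and 6 Rfx2-/- mice, each panel on its own linear scale. The genotypes were apart for Rab27a and Rab27b, which were picked for their lower level, and overlapped for all 8 effectors. Among all tested genes, 5.2% had every Rfx2-/- mouse below every WT mouse, and 6.5% had every one above. Single mice stood high for Sytl1, Sytl3, Sytl5 and Mlph.

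Sytl4 (ENSMUSG00000031255, chromosome X from 133936385 to 133981812, minus strand) encodes granuphilin, which docks insulin granules and binds Rab27a, Rab3a and Rab8. It was the most abundant member, at 60.1, 66.1, 80.8, 70.9 and 81.7 CPM in WT replicates 1 to 5. Rfx2-/- mice ran from 55.0 through a median of 57.9 to 68.0 CPM. WT replicates 3, 4 and 5 lay above every Rfx2-/- mouse, and WT replicates 1 and 2 lay within their range. The fitted difference was -0.25 on the log2 scale (standard error 0.09, adjusted p = 0.0740 in edgeR), and over the alternatives that kept all mice the adjusted p was 0.0336 to 0.0961. Without WT replicates 3 and 5 it was -0.11 (adjusted p = 0.478 in edgeR).

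The WT mice highest in Sytl4 were the mice highest in Sertoli cell markers. Per 1000 CPM of the 9 summed Sertoli markers, Sytl4 was at 20.1 ± 1.17 CPM (SD, n = 5) in WT and 19.7 ± 1.09 CPM (SD, n = 6) in Rfx2-/- mice, with ranges of 18.6 to 21.1 and 18.5 to 20.9 CPM. Relative to the mean, this was the narrowest spread of the 11 marker lists in both genotypes (5.83% and 5.54%), and the list was singled out after its values were seen. Rab27a per 1000 CPM of the same markers stayed apart, at 4.48 to 12.3 CPM in WT and 2.68 to 3.37 CPM in Rfx2-/- mice. Scaled in this way to each of the 11 lists, Rab27a stayed apart between genotypes for 6 and overlapped for 5, those of round spermatids, spermatogonia, Leydig cells, endothelium and platelets. The part of Sertoli cell content in the Sytl4 difference was not tested.

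Sytl2 (ENSMUSG00000030616, chromosome 7 from 90302252 to 90410719, plus strand) encodes Slp2, which tethers Rab27-bearing organelles to the plasma membrane. It was at 7.18, 7.09, 7.63, 6.72 and 8.14 CPM in WT replicates 1 to 5. The Rfx2-/- values were 7.48 at the lowest, 8.14 at the median and 9.51 at the highest. The groups overlapped, with 3 Rfx2-/- mice above all WT mice and the other 3 within their range. The fitted difference was 0.18 with a 95% interval of -0.03 to 0.38 (adjusted p = 0.167 in edgeR), so a 2-fold change in either direction lay outside the interval. With total counts as library sizes it was 0.00.

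Sytl1, Sytl3 and Sytl5 were under 3 CPM in every mouse, and single mice carried much of their signal. Sytl1 encodes Slp1, which acts in granule secretion by leukocytes and pancreatic acinar cells. Its WT values were 0.916, 0.471, 0.653, 0.525 and 0.880 CPM, and the Rfx2-/- values ran from 0.248 through a median of 0.660 to 2.17 CPM. Rfx2-/- replicate 10 was the one mouse above 1 CPM. The fitted difference of Sytl1 was 0.32 with a standard error of 0.46 (adjusted p = 0.600 in edgeR), and without replicate 10 it was -0.20.

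Sytl3 encodes Slp3, known from lytic granule transport in T cells. WT replicates 1 to 5 had 0.810, 0.605, 0.199, 0.245 and 0.189 CPM, and Rfx2-/- mice 0.185 at the lowest, 0.435 at the median and 1.69 at the highest. For Sytl3 the fitted difference was 0.67 with a standard error of 0.59 (adjusted p = 0.392 in edgeR). Its exons share 4 nt with those of Ezr on the other strand. Sytl5, on chromosome X, encodes Slp5. It was at 1.48, 0.437, 0.142, 0.105 and 0.157 CPM in WT replicates 1 to 5 and at 0.046, 0.456 and 1.20 CPM as the lowest, median and highest of the Rfx2-/- mice. The fitted difference of Sytl5 was 0.04 with a 95% interval of -1.71 to 1.79 (adjusted p = 0.972 in edgeR), and its sign turned in several alternatives. In both genotypes the mice high in Sytl3 and Sytl5 were those high in round spermatid markers: WT replicates 1 and 2 had summed marker levels of 396 and 124 CPM against 8.11 to 24.3 CPM in the other WT mice. Rfx2-/- replicate 7, the highest in both genes, had 551 CPM of these markers, and replicates 8 and 9, the lowest in both, had 25.2 and 28.2 CPM. Whether spermatids carried these reads was not tested.

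Myrip (ENSMUSG00000041794, chromosome 9 from 120301513 to 120474841, plus strand) encodes Slac2-c, which joins Rab27a to the motor myosin VIIa and to actin. Its WT values were 1.02, 1.24, 1.70, 1.44 and 1.98 CPM, and the Rfx2-/- mice had 0.653 at the lowest, 0.782 at the median and 1.47 at the highest. WT replicates 3 and 5 lay above all Rfx2-/- mice, and 4 of 6 Rfx2-/- mice lay below all WT mice. The fitted difference was -0.69 with a standard error of 0.25 (adjusted p = 0.0736 in edgeR). It was -0.42 without WT replicates 3 and 5 (adjusted p = 0.398 in edgeR), and over the alternatives that kept all mice the adjusted p was 0.0503 to 0.111.

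Mlph (ENSMUSG00000026303, chromosome 1 from 90915085 to 90951142, plus strand) encodes melanophilin, or Slac2-a, which ties Rab27a on melanosomes to myosin Va and is mutated in leaden mice. It was at 3.35 CPM in WT replicate 1 and at 0.773, 0.710, 0.981 and 0.817 CPM in WT replicates 2 to 5. Rfx2-/- mice had 0.434, 0.543 and 0.978 CPM as the lowest, median and highest values. Apart from WT replicate 1 the genotypes overlapped. The fitted difference was -1.02 with a standard error of 0.45 (adjusted p = 0.110 in edgeR), and without WT replicate 1 it was -0.34 (adjusted p = 0.305 in edgeR), so 1 mouse decided its size. That mouse had 24.7 CPM of summed melanocyte markers, the most of the 11 mice, against 16.8 to 24.0 CPM in the others, with Tyr and Tyrp1 at 0 in all of them.

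Unc13d (ENSMUSG00000057948, chromosome 11 from 116062095 to 116077961, minus strand) encodes Munc13-4, which primes Rab27-bearing granules for fusion in lymphocytes, platelets and mast cells. It was at 11.9, 11.8, 12.0, 11.1 and 10.2 CPM in WT replicates 1 to 5. In Rfx2-/- mice it was at 8.99 at the lowest, 11.5 at the median and 12.8 at the highest. The groups covered much the same range. The fitted difference was -0.03 with a 95% interval of -0.24 to 0.19 (adjusted p = 0.848 in edgeR), with those of Sytl2 and Sytl4 the 3 narrowest among the effectors.

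**Figure D4:**
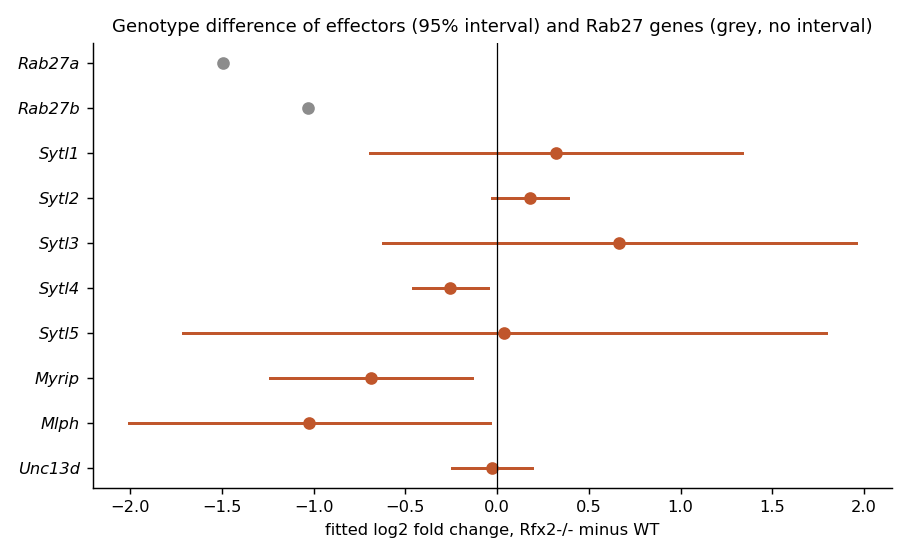
Fitted log2 fold change of the 10 members, Rfx2-/- minus WT, with 95% intervals for the effectors and, in grey without an interval, for the Rab27 genes that were picked for their lower level. The intervals of Sytl4, Myrip and Mlph lay below 0 before adjustment over all genes, and those of Sytl2, Sytl4 and Unc13d were narrow where those of Sytl1, Sytl3, Sytl5 and Mlph were wide.

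Genes that load, activate or retrieve Rab27 held 0 calls. The list had 10 genes, among them the exchange factor Madd, the GTPase-activating proteins Tbc1d10a, Tbc1d10b and Tbc1d10c, the escort protein Chm, the prenyl transferase subunits Rabggta and Rabggtb, and the retrieval protein Gdi2. All 10 were tested, 0 were called by edgeR, DESeq2 or limma voom, and 4 were lower at an unadjusted p under 0.05 in edgeR (among them Tbc1d10b, Chm and Rabggta, named after their values were seen), where 2.67% of all tested genes were called and 23.7% were lower at that unadjusted p. Their median log2 fold change was -0.19, with 8 below and 2 above 0. Gdi2 was at 189 ± 11.3 CPM (SD, n = 5) in WT and 208 ± 20.3 CPM (SD, n = 6) in Rfx2-/- mice (adjusted p = 0.175 in edgeR). Tbc1d10a, which encodes EPI64, a GTPase-activating protein for Rab27a, was at 63.0 ± 4.31 and 62.1 ± 5.31 CPM with a fitted difference of -0.02 (adjusted p = 0.845 in edgeR).

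Transcripts of proteins that the effectors bind were also counted. Of 9 genes, 8 were tested, among them Myo5a, Myo7a, Mapre1, Exoc3, Exoc4 and Rph3al, and 0 were called by edgeR, DESeq2 or limma voom. At an unadjusted p under 0.05 in edgeR, 1 was higher (Exoc3, an exocyst subunit) and 0 lower, against 18.1% and 23.7% of all tested genes, and the median log2 fold change was -0.10. Myo7a, the motor of Myrip, was at 266 ± 32.7 CPM (SD, n = 5) in WT and 245 ± 12.8 CPM (SD, n = 6) in Rfx2-/- mice, with a fitted difference of -0.12 (adjusted p = 0.275 in edgeR). Mapre1, the microtubule plus-end protein EB1 that binds melanophilin, was at 204 ± 22.7 and 191 ± 10.2 CPM (adjusted p = 0.348 in edgeR).

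The remaining gene of that list, Rph3a, did not pass the filter on low counts and is named after its values were seen. It encodes rabphilin, which binds Rab3a and Rab27. WT replicates 1 to 5 had 0.211, 0.134, 0.057, 0.035 and 0.031 CPM, from 1 to 6 reads. The Rfx2-/- mice had 2.11, 4.58, 0.046, 0.133, 1.22 and 0.827 CPM in replicates 6 to 11, up to 111 reads in 1 library. Replicates 6, 7, 10 and 11 lay above all WT mice, and replicates 8 and 9 lay within the WT range. Those 4 mice had 84.0 to 551 CPM of summed round spermatid markers against 25.2 and 28.2 CPM in replicates 8 and 9, while WT replicate 1 had 396 CPM of these markers and 0.211 CPM of Rph3a. When genes were kept without the filter, the fitted difference was 3.94 with a standard error of 1.03 (adjusted p = 0.0403 in edgeR), which is above the 0.01 used here. Rph3a passed the filter in fits that left out WT mice. Leaving out 1 WT mouse gave an adjusted p in edgeR from 0.0235 (without WT replicate 1) to 0.0804 (without WT replicate 3). Without WT replicates 3 and 5 the fitted difference was 3.51 (adjusted p = 0.132 in edgeR). The part of spermatid number in this pattern was not tested.

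Of 14 genes of the acrosomal exocytosis machinery, 12 were tested and 0 were called by edgeR, with 5 lower and 1 higher at an unadjusted p under 0.05. Of all tested genes, 2.67% were called, and 23.7% were lower and 18.1% higher at that unadjusted p. In the list, limma voom called 0, and DESeq2 called 1, Snap23, as higher. The median log2 fold change was -0.24, and Syt6 and Snap25 had at most 6 and 4 reads in any mouse. The vesicle SNARE Vamp3 was at 192 ± 14.4 CPM (SD, n = 5) in WT and 200 ± 12.9 CPM (SD, n = 6) in Rfx2-/- mice (adjusted p = 0.503 in edgeR), and Napa, which encodes the SNARE disassembly adaptor alpha-SNAP, was at 116 ± 18.8 and 135 ± 11.3 CPM (adjusted p = 0.145 in edgeR). Vamp8, another vesicle SNARE, named after its values were seen, was at 19.6 ± 2.09 and 15.1 ± 1.87 CPM with every Rfx2-/- mouse below every WT mouse (difference -0.38, adjusted p = 0.0398 in edgeR). Among the 12 tested genes of the list, 1 was apart in this direction, where 5.2% of all tested genes were. At an adjusted p of at most 0.05, 8.78% of all tested genes were lower.

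Rab27a and Rab27b were set beside the other Rab genes of the table. Of 57 genes, 51 were tested, 2 were lower at an adjusted p of at most 0.01 in edgeR (Rab36 and Rab43) and 0 were higher, where 1.94% and 0.73% of all tested genes were called in these directions. Rab36, a Golgi-associated Rab, fell by 1.53 on the log2 scale (standard error 0.14, adjusted p = 0.000143 in edgeR). It was at 53.7, 42.3, 35.4, 40.0 and 28.5 CPM in WT replicates 1 to 5 and at 11.7 to 15.1 CPM in Rfx2-/- mice, so that, as for Rab27a, WT replicate 1 was highest and replicates 3 and 5 lowest. Rab43, which acts between the endoplasmic reticulum and the Golgi, fell by 0.26 (standard error 0.05, adjusted p = 0.00870 in edgeR), with WT mice at 69.6 ± 3.11 CPM (SD, n = 5) and Rfx2-/- mice at 58.2 ± 2.38 CPM (SD, n = 6). Its call was lost in 9 of 11 fits that left out 1 mouse and when WT replicates 3 and 5 were left out (adjusted p = 0.0333 in edgeR).

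Among the Rab genes, the genotypes did not overlap in 2 genes lower and 5 genes higher in Rfx2-/- mice, where 5.2% and 6.5% of all tested genes did not overlap in these directions. DESeq2 called 2 lower and 6 higher, and limma voom 2 lower and 2 higher. The median log2 fold change of the 51 was -0.13, with 35 below and 16 above 0. Rab3a, the other Rab of acrosomal exocytosis, was at 7.81 ± 0.96 CPM (SD, n = 5) in WT and 6.20 ± 0.73 CPM (SD, n = 6) in Rfx2-/- mice, a fitted difference of -0.33 (adjusted p = 0.0681 in edgeR).

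**Figure D5:**
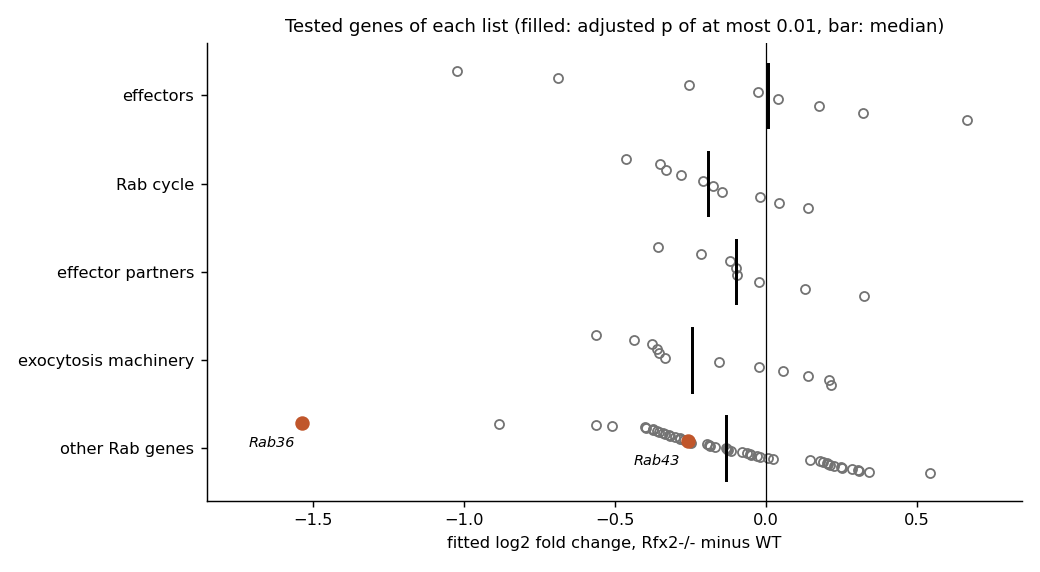
Fitted log2 fold change, Rfx2-/- minus WT, of the tested genes of 5 lists, with filled points for genes at an adjusted p of at most 0.01 in edgeR and a bar at each median. Rab36 and Rab43 were the filled genes, and the effectors, with a median of 0.01, spread from -1.02 to 0.67.

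The genes whose pattern over the 11 mice was most like that of Rab27a, among 14421 tested genes with a mean of at least 1 CPM, were Orai2 (Pearson's r of log2 CPM 0.997), Sel1l2 (0.996) and Fam161a (0.995). All 11 mice of both genotypes enter these values, which are a description. Orai2, a subunit of store-operated calcium channels, was at 8.32 to 16.5 CPM in WT and 2.92 to 3.91 CPM in Rfx2-/- mice. Sel1l2, a relative of the ubiquitin ligase adaptor Sel1l, was at 9.36 to 48.2 and 0.653 to 1.30 CPM. Fam161a, which encodes a protein of centrioles and ciliary basal bodies, was at 15.2 to 57.6 and 2.89 to 3.87 CPM. Rab27a had the smallest fitted difference of these 4 genes, at -1.50 against -1.82 for Orai2, -3.32 for Fam161a and -4.75 for Sel1l2.

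Zfp426, Cyp39a1 and Bbc3 were most like Rab27b, with r of 0.967, 0.966 and 0.964, and none of the 3 was among those most like Rab27a. Rab27b had 5 to 28 reads per mouse, and its spread within each genotype was below counting error. Both genotypes enter r, and Rab27b was picked for their difference, so these values are a description. Zfp426, a zinc finger gene, was at 29.9 to 32.5 CPM in WT and 24.7 to 27.9 CPM in Rfx2-/- mice, while Cyp39a1, an oxysterol hydroxylase, and Bbc3, the cell death gene that encodes PUMA, were at 1.26 to 3.90 CPM in all mice.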

How the data were processed

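Testis RNA of 5 WT and 6 Rfx2-/- mice at 21 days was sequenced as single reads from TruSeq libraries. According to the paper and the submitters' processing notes, the authors called bases with CASAVA 1.8.2, mapped reads to GRCm38 with STAR 2.4, dropped reads with more than 1 position, and deposited raw counts over merged coding exons from featureCounts 1.4.6, leaving out reads on exons of different genes. Paragraphs of its methods differ in read length and aligner. Library strand is not given in the sources used here.

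Members, lists and tests were chosen with earlier results of these data known. Of 23074 gene IDs, 22293 matched GENCODE M21 (GRCm38), the source of symbols, positions and exon lengths. Counts were fitted in R 4.3.3 with edgeR 4.0.16 (filterByExpr by genotype, TMM, glmQLFit, glmQLFTest, no covariate) over 15745 genes with Benjamini-Hochberg adjustment, and called at an adjusted p of at most 0.01. DESeq2 1.42.0, limma 3.58.1 voom, other scalings, filters, a round spermatid covariate and leaving out mice were alternatives, and leaving out WT replicates 3 and 5 was added after seeing the data. Marker lists were scored as mean log2 CPM (prior count 2) and tested over 462 splits of the mice, with a smallest p of 0.00216. The floor of 3 counts covers counting error only. Scripts were tested on simulated counts. Named genes were the members, called genes of each list or, with fewer than 2, its 2 highest per length in WT, and the 3 genes most like each Rab27 gene. Some genes of the lists are counted but not reported here by name. Promoters came from RefSeq (GRCm38.p6). Tables and figures used Python 3.11.15, pandas 2.3.3, SciPy 1.17.1 and matplotlib 3.10.9.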

Additional observations from a re-analysis of the deposited data

Results flagged for a closer look

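In groups of 5 and 6 mice, the gap of the highest or lowest mouse to its neighbour was compared with Dixon's 95% critical value for 24 named genes, 48 groups in all, of which chance alone flags about 1 in 20. Single mice stood apart in 5 groups. Rab27a in Rfx2-/- replicate 11 was low, at 8.31 CPM against 9.41 to 9.99 CPM in the other Rfx2-/- mice, although the spread over these 6 mice (5.95% of the mean) was below their counting error (6.78%). Sytl1 was high in Rfx2-/- replicate 10, at 2.17 CPM against 0.248 to 0.924 CPM. Fam161a was also high in that mouse, at 3.87 CPM against 2.89 to 3.13 CPM. WT replicate 1 was high in Sytl5, at 1.48 CPM against 0.105 to 0.437 CPM in the other WT mice, and in Mlph, at 3.35 CPM against 0.710 to 0.981 CPM. That mouse had the most round spermatid markers among WT mice, 396 CPM in sum, whose part in these values was not tested.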

How the results depend on the processing

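No paired analysis was possible because the labels do not say which mice were littermates. Effectors, Rab cycle genes and effector partners held 0 calls under every alternative run among the members that each fit tested (Sytl3 in 8 of the 11 fits with 1 mouse left out), and the fitted differences of Rab27a and Rab27b stayed negative (-1.74 to -1.35 and -1.21 to -0.86). Mean counts of at least 50 left out the rarer members. With total counts as library sizes the median of all genes moved from -0.05 to -0.22, and Gdi2 (-0.025), Vamp3 (-0.10), Sytl5 (-0.083) and the lymphocyte list (-0.063) turned negative, while the pachytene list (0.53) passed the 0.05 used for marker lists, as with DESeq2's size factors (0.72; exact permutation, adjusted p = 0.0476 in both). Without WT replicate 1 the pachytene (0.85) and Sertoli (-0.37) lists both passed it (exact permutation, adjusted p = 0.0262). Calls among other Rab genes went from 2 to 1 with DESeq2's size factors, total counts, no filter, the robust prior or without WT replicates 3 and 5, to 8 in DESeq2, 4 in limma voom and 13 with the threshold at 0.05, and were 1 to 3 with 1 mouse left out. The exocytosis list had 1 call in DESeq2 and at 0.05. Over all genes, 420 calls became 2057 in DESeq2, 1049 in limma voom, 1305 with the spermatid covariate, 2350 at 0.05 and 229 to 585 with 1 mouse left out. Further changes of sign were Sytl5 with the covariate (-0.51) and without WT replicates 3 and 5 (-0.50), Tbc1d10a with DESeq2's size factors (0.0060), its test (0.0061) or the covariate (0.0055), Myo7a in limma voom (0.0029) and without WT replicates 3 and 5 (0.012), Mapre1 without them (0.0032), Vamp3 in limma voom (-0.0043), and the round spermatid (-0.11) and peritubular myoid lists (0.19) without them. With 1 mouse left out, the ranges were -0.20 to 0.51 for Sytl1, -0.49 to 1.16 for Sytl5, -0.068 to 0.030 for Unc13d, -0.044 to 0.012 for Tbc1d10a, 0.49 to 0.85 for pachytene, -0.37 to -0.23 for Sertoli, -0.16 to 0.050 for peritubular and -0.14 to 0.079 for platelet markers. The causes were not tested.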

Other observations

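At an adjusted p of at most 0.05 in edgeR, 13 of the 51 other Rab genes passed, 7 lower and 6 higher in Rfx2-/- testes, where 8.78% and 6.15% of all tested genes passed in these directions. The 6 higher genes, named after their values were seen, were Rab33b, Rab8b, Rab2b, Rab21, Rab8a and Rab22a, with fitted differences of 0.21 to 0.31 on the log2 scale. Rab8a and Rab8b act in transport from the trans-Golgi to the plasma membrane and cilium, and Rab2b and Rab33b at the Golgi. Rab8b was at 60.5 ± 5.05 CPM (SD, n = 5) in WT and 70.7 ± 1.85 CPM (SD, n = 6) in Rfx2-/- mice (adjusted p = 0.0308 in edgeR). Beside Rab36 and Rab43, the lower genes were Rab5a, Rab31, Rab32, Rab20 and Rab12. Rab32, which acts on lysosome-related organelles as Rab27a does, was at 1.93 ± 0.22 and 1.31 ± 0.26 CPM (adjusted p = 0.0398 in edgeR).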
